A study of Mus musculus with 4 samples.

Results

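The genes described here are 9 transcription factors that direct epithelial differentiation, measured in the small intestine (SI) of irradiated p53+/+ and p53-/- mice. They are Zfp750, the Krüppel-like factors Klf4 and Klf5, the Grainyhead-like factors Grhl1, Grhl2 and Grhl3, the ETS factors Elf3 and Ehf, and Ovol1. The members were matched by gene symbol, and 9 of the 56748 genes in the count table carried these names. They were chosen from the same genotype contrast that is described here, with Zfp750 as the leading gene, so the values of the members are given as a description and without p-values. After removal of genes with low counts, 9 of the 9 members and 16094 genes in all remained for testing.

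Wild-type mice (p53+/+) were compared with mice carrying a germline deficiency of p53 in every cell (p53-/-), both from the Jackson Laboratory and, by the study's methods, matched for age and gender. Both genotypes received 12 Gy of total-body irradiation (TBI) from a Cs-137 source, and the SI was collected at 1 day post-TBI. Polyadenylated RNA of the tissue was sequenced in 2 libraries per genotype, named here by the numbers in the deposited table: 7 and 8 for p53+/+, 9 and 10 for p53-/-. No unirradiated SI was analysed here, so a difference that existed without irradiation cannot be told apart from one that followed it. Whole SI was used, and in such bulk samples fewer cells of a type and less RNA per cell cannot be told apart.

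As background, these factors belong to the machinery that turns a proliferating epithelial progenitor into a barrier cell. In stratified epithelium, p63 activates ZNF750, the human counterpart of Zfp750, which partners with KLF4 and chromatin regulators to repress progenitor genes and to switch on terminal differentiation genes. In the intestine, Klf4 is known for goblet cell differentiation and for low proliferation in the villus, whereas Klf5 acts in proliferating crypt cells. Grainyhead-like and Ovol factors keep the epithelial state by sustaining junction genes and repressing mesenchymal genes, and Elf3 and Ehf are ETS factors of epithelia.

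Total counts ranged from 15005479 to 22173164 per library. Trp53, the targeted gene, was at 933 and 726 counts in the p53+/+ libraries and at 452 and 453 in the p53-/- libraries (log2 fold change -1.31 with a standard error, SE, of 0.188). By edgeR's quasi-likelihood test, adjusted by Benjamini and Hochberg over all genes, its p was 0.0602. Library 10 stood apart from the others. It held 588 counts of Xist, the RNA of the inactive X chromosome, against 0 to 4 elsewhere, so the libraries were not alike in this female-specific RNA although the methods state gender matching. Of its counts, 4.59% came from the ribosomal RNA gene Rn18s-rs5 against 0.296 to 0.863% in the others, and its 10 B cell and follicle markers summed to 551 CPM (TMM-scaled counts set to one library size) against 62.3 CPM in library 9 and 15.8 and 16.9 CPM in the p53+/+ libraries. Of 8 tested B cell markers, 0 passed edgeR's adjusted test, 8 were higher at an unadjusted p under 0.05 and DESeq2 called 6 higher. Library 8 held 5604 CPM of 8 smooth muscle markers against 723 to 1392 CPM in the others. The intestinal identity of the tissue was clear in each library, since 12 markers of intestinal epithelium such as Epcam, Vil1 and Krt20 summed to 34823 and 25604 CPM in p53+/+ and to 22438 and 19290 CPM in p53-/- SI. Of these 12 epithelial markers, 12 had a negative log2 fold change (median -0.54), while 0 passed edgeR's adjusted test, 1 had an unadjusted p under 0.05 and 3 passed DESeq2. Of 11 tested enterocyte markers, 0 passed edgeR, 3 were lower at an unadjusted p under 0.05, DESeq2 called 4 lower and the likelihood ratio test 3 (median -0.70). This lower epithelial signal lay beside every member described here, and its part in their values was not tested.

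The members covered a wide range of levels. On the scale of CPM per kilobase of exon, which allows genes to be compared, the mean level in p53+/+ SI was 269 for Elf3, 176 for Klf4, 65.1 for Klf5, 23.8 for Ehf, 14.6 for Ovol1, 2.09 for Grhl2, 1.46 for Zfp750, 0.393 for Grhl3 and 0.308 for Grhl1. Neighbours in this order whose libraries overlapped were Elf3 with Klf4 and Grhl3 with Grhl1. In p53-/- SI the order of Elf3, Klf4, Klf5, Ehf, Ovol1 and Grhl2 was the same, with 202, 105, 63.6, 22.0, 9.58 and 1.99 CPM per kilobase. Grhl1 (0.567) and Grhl3 (0.505) then overlapped each other, and Zfp750 came last at 0.0222 CPM per kilobase. Averaged over the 4 libraries, Elf3 and Klf4 stood at the 98.8 and 97.9 percentiles of all genes tested per length, and Zfp750 at the 19.5 percentile.

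The promoters of the abundant members are shown because Krüppel-like and Grainyhead-like factors recognise short motifs that can be read in them. RefSeq promoters of the GRCm38.p6 build, from 250 bases before to 50 bases after the start of the gene, were found for 4 of the 9 members (Elf3, Klf4, Grhl3 and Grhl1). Entries for Zfp750, Klf5, Grhl2, Ehf and Ovol1 were not matched. Capitals mark 3 motifs on either strand: the GC box GGGCGG, the CACCC box CACCC and the Grainyhead core AACCGG. Adjacent matches of the GC box can share bases. The Elf3 promoter lies at chr1:135258423-135258722 and the Klf4 promoter at chr4:55532426-55532725, both on the minus strand and printed 5′ to 3′.
Elf3: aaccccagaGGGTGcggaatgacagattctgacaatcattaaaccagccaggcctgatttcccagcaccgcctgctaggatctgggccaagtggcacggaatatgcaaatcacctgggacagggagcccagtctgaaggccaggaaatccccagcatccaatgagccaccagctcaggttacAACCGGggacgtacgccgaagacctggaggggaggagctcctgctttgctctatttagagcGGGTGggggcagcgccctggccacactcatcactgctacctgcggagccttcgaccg
Klf4: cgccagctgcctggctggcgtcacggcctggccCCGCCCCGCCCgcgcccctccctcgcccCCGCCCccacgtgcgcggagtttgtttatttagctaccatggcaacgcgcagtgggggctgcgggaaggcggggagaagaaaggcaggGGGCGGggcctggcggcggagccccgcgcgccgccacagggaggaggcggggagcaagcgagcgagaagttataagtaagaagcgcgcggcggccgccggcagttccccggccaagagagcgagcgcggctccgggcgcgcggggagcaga
The Klf4 window had a GC content of 74.3% and 4 GC boxes, and 35.7% of 32851 promoters of this length held at least 1 GC box. The Elf3 window (59% GC) held 2 CACCC boxes, found in 57.5% of all promoters, and 1 Grainyhead core, found in 6.83%. The letters are a description of the sequence and not of any binding.

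Zfp750 (ENSMUSG00000039238), a zinc finger factor of terminal epidermal differentiation, was almost absent from the p53-/- SI. It was counted 87 and 62 times in the p53+/+ libraries and 1 and 2 times in the p53-/- libraries. Exact 95% Poisson intervals were 69.7 to 107 and 47.5 to 79.5 counts for libraries 7 and 8, and 0.0253 to 5.57 and 0.242 to 7.22 counts for libraries 9 and 10. These and all other counting intervals cover counting error only. Both p53+/+ counts were far above both p53-/- counts. As Zfp750 was chosen from this contrast, nothing is read from the distance between the intervals. The mean was 4.70 ± 0.963 CPM in p53+/+ and 0.0717 ± 0.0394 CPM in p53-/- SI (SD, n = 2). From the summed counts, 149 against 3, the level per library size was 67.5-fold lower in p53-/- SI (exact 95% binomial interval 22.7- to 331-fold). This interval pools the libraries of a genotype and leaves out differences between mice. Computed with 3 counts in each p53-/- library, Zfp750 was at least 33.5-fold lower. Zfp750 was also set against 8 abundant epithelial genes. Per 10000 of their counts, it was at 2.0 and 2.0 in p53+/+ and at 0.0248 and 0.0676 in p53-/- SI. Those 8 genes themselves all had a negative log2 fold change (median -0.53, beside -0.01 for all genes tested). The part of the epithelial RNA in the Zfp750 values was not tested.

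The surroundings of Zfp750 were examined because its gene lies inside another. In the GENCODE M21 annotation, Zfp750 lies within the span of Tbcd, a tubulin folding cofactor encoded on the opposite strand, and 0 of its 3232 exonic bases belong to an exon of Tbcd. Tbcd was counted 837 and 728 times in p53+/+ and 1005 and 810 times in p53-/- libraries (log2 fold change -0.23, SE 0.153, adjusted p = 0.508 from edgeR). B3gntl1, the nearest tested gene on one side, had 92 and 62 against 111 and 86 counts (adjusted p = 0.939 from edgeR). Fn3k, on the other side, had 4 and 24 against 13 and 18 counts (adjusted p = 0.910 from edgeR). None of these 3 genes passed the test, and their p53-/- counts were not near 0 as those of Zfp750 were. A part of the surrounding locus in the Zfp750 values was not tested.

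**Figure D1:**
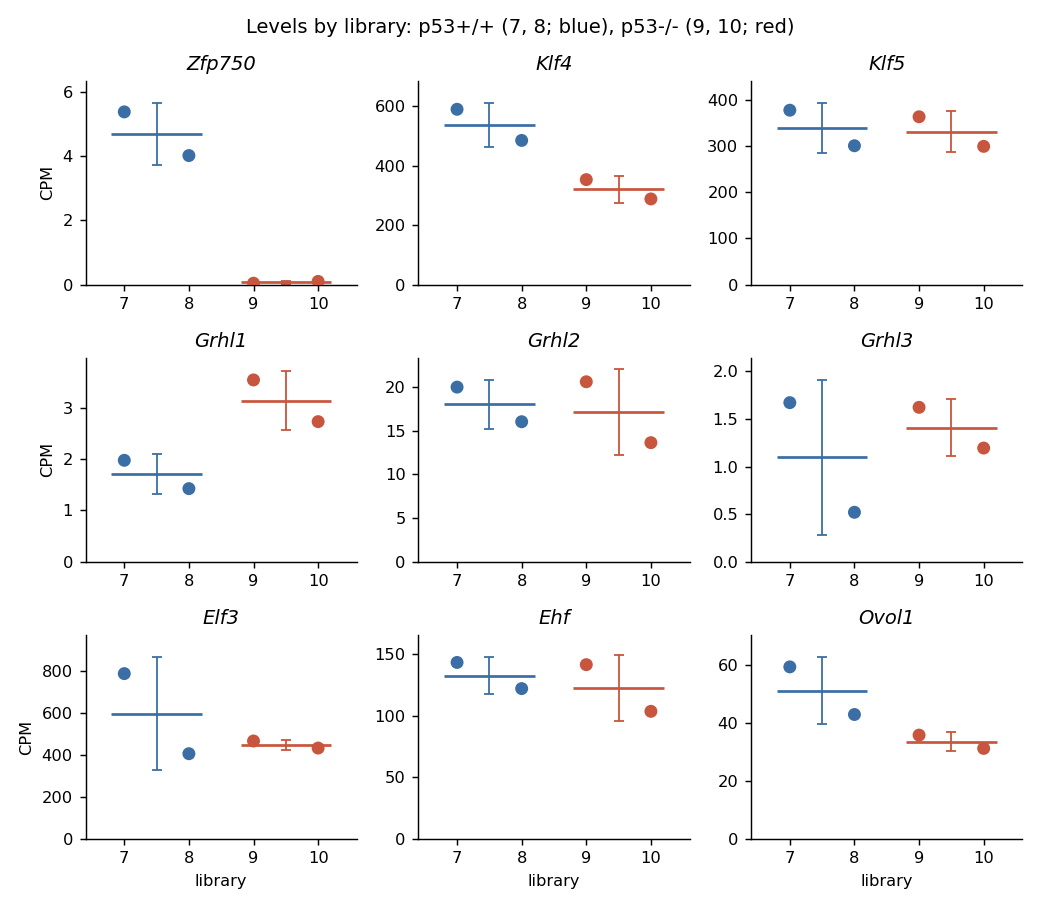
Levels of the 9 members in each library, in CPM on linear axes that start at 0, with 1 panel per gene. Points are libraries (blue for p53+/+, red for p53-/-), and the lines with bars give mean ± SD per genotype (n = 2). Zfp750 is at 5.38 and 4.02 CPM in p53+/+ and at 0.0438 and 0.0995 CPM in p53-/- SI, while Klf5, Grhl2, Grhl3, Elf3 and Ehf overlap between genotypes.

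Among the Krüppel-like members, Klf4 was lower in both p53-/- libraries and Klf5 was not. Klf4 (ENSMUSG00000003032) was counted 9532 and 7477 times in p53+/+ and 8059 and 5795 times in p53-/- libraries, which is 590 and 485 against 353 and 288 CPM. Its mean was 538 ± 74.1 CPM in p53+/+ and 321 ± 45.9 CPM in p53-/- SI (SD, n = 2), a log2 fold change of -0.74 (SE 0.229). The genotypes did not overlap. Klf5 (ENSMUSG00000005148) was counted 6090 and 4625 times against 8275 and 6006 times, at 377 and 300.1 against 363 and 299 CPM. With means of 338 ± 54.3 and 331 ± 45.2 CPM (SD, n = 2) and a log2 fold change of -0.03 (SE 0.225), its libraries interleaved.

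The ratio of Klf4 to Klf5 counts within a library needs no scaling between libraries. It was 1.57 in library 7 (95% Wilson-derived interval 1.52 to 1.62) and 1.62 in library 8 (1.56 to 1.68). In the p53-/- libraries it was 0.974 (0.944 to 1.00) in library 9 and 0.965 (0.931 to 1.00) in library 10. The intervals of the 2 libraries of a genotype overlapped, those of different genotypes did not, and Klf4 counts exceeded Klf5 counts only in the p53+/+ libraries. These intervals cover counting error only and not differences between mice. The ratio shows unequal levels of the pair and does not say which of the genes differed.

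The Grainyhead-like members were of low abundance, and none was lower in both p53-/- libraries. Grhl1 (ENSMUSG00000020656) was counted 32 and 22 times in p53+/+ and 81 and 55 times in p53-/- libraries, at 1.98 and 1.43 against 3.55 and 2.74 CPM. Its mean was 1.70 ± 0.391 in p53+/+ and 3.14 ± 0.576 CPM in p53-/- SI (SD, n = 2), a log2 fold change of 0.88 (SE 0.471), and on the TMM scale it was the only member whose p53-/- libraries were both above the p53+/+ libraries. Grhl2 (ENSMUSG00000022286), the most abundant of the family here and a regulator of adherens and tight junction genes, was counted 323 and 247 times in p53+/+ and 470 and 274 times in p53-/- libraries (log2 fold change -0.07, SE 0.294). Grhl3 (ENSMUSG00000037188), known for the epidermal barrier, was counted 27 and 8 against 37 and 24 times, and its log2 fold change of 0.36 was smaller than its SE of 0.704 and became 1.44 without library 7 and -0.25 without library 8. Grhl2 and Grhl3 overlapped between genotypes. Grhl1 counts per Grhl2 count were 0.0991 and 0.0891 in p53+/+ and 0.172 and 0.201 in p53-/- libraries, although the 95% interval of library 9 (0.136 to 0.218) met those of libraries 7 (0.0690 to 0.142) and 8 (0.0578 to 0.137). Grhl2 counts per Ehf count were nearly level, at 0.140 and 0.131 in p53+/+ and 0.146 and 0.132 in p53-/- libraries.

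Neither ETS member separated the genotypes. Elf3 (ENSMUSG00000003051), an epithelial ETS factor that is abundant in the intestine, was at 787 and 405 CPM in p53+/+ and at 466 and 432 CPM in p53-/- SI (596 ± 270 against 449 ± 23.8 CPM, SD, n = 2). Library 7 was far above the other 3, and without it the log2 fold change of -0.41 (SE 0.352) became 0.16. Ehf (ENSMUSG00000012350), its relative, was at 143 and 122 against 141 and 103 CPM, a log2 fold change of -0.11 (SE 0.218). The ratio of Elf3 to Ehf counts was 5.50 and 3.32 in p53+/+ and 3.29 and 4.18 in p53-/- libraries, so that the p53+/+ libraries lay on both sides of library 10.

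Ovol1 (ENSMUSG00000024922), a zinc finger repressor that promotes exit from proliferation and restrains mesenchymal genes, was counted 957 and 660 times in p53+/+ and 815 and 626 times in p53-/- libraries. At 59.2 and 42.8 against 35.7 and 31.1 CPM (51.0 ± 11.6 and 33.4 ± 3.24 CPM, SD, n = 2), it was lower in both p53-/- libraries, with a log2 fold change of -0.61 (SE 0.211). Ovol1 counts per Ehf count were 0.414 and 0.351 in p53+/+ and 0.253 and 0.301 in p53-/- libraries. Without library 7 the log2 fold change of Ovol1 was closest to 0 among the fits that left out 1 library, at -0.35.

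**Figure D2:**
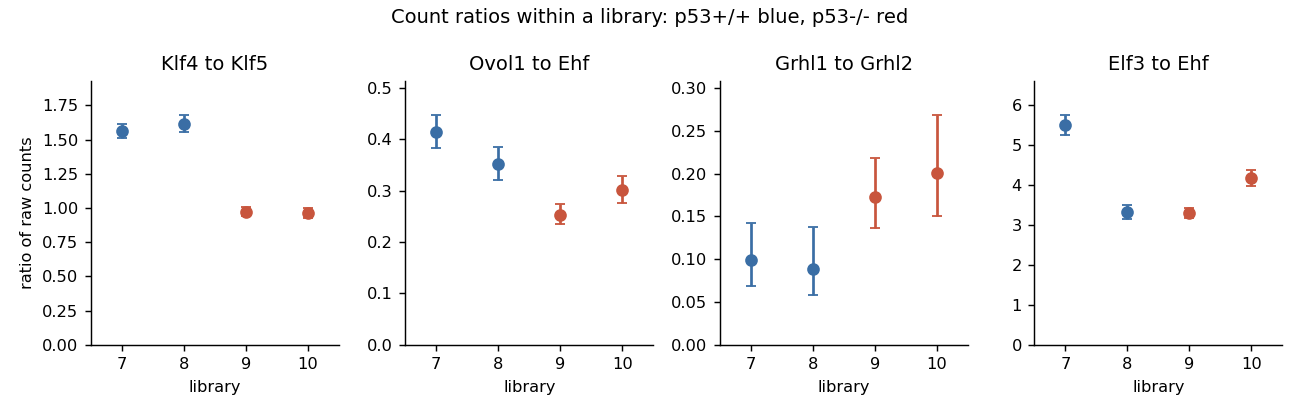
Ratio of raw counts of 4 member pairs within each library (blue for p53+/+, red for p53-/-), with 95% intervals for counting error as bars. The Klf4 to Klf5 ratio is 1.57 and 1.62 in p53+/+ and 0.974 and 0.965 in p53-/- libraries, whereas the Elf3 to Ehf ratio of library 10, at 4.18, lies between the p53+/+ values of 5.50 and 3.32.

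Genes on the opposite strand share exonic bases with 3 members, and the strand setting of the counting is not given in the sources used here. Gm26642 covers 162 of 2217 exonic bases of Elf3 and had 15 to 45 counts per library. Gm16136 covers 169 of 8613 bases of Grhl2 and had 17 to 28 counts. Gm31166 covers 690 of 3488 bases of Ovol1, with 5 to 8 counts, and 1810058N15Rik covers 76, with 5 to 14 counts. These counts were small beside those of their partners, although reads in shared bases cannot be assigned without strand.

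The direction of several members depended on the scale. When libraries were scaled to 8 epithelial genes in place of TMM, the median log2 fold change of all genes moved by 0.52, and member values shifted with it. On that scale, per 10000 epithelial counts, Klf4 was at 219 and 241 in p53+/+ and at 200.2 and 196 in p53-/- SI (log2 ratio -0.22). Klf5 was at 140 and 149 against 206 and 203 (log2 ratio 0.50). Thus Klf4 differed little and Klf5 was higher on the epithelial scale, while on the TMM scale Klf4 was lower and Klf5 overlapped. Ovol1, at 22.0 and 21.3 against 20.2 and 21.2, was nearly level (log2 ratio -0.06), and Grhl1 was at 0.736 and 0.710 against 2.01 and 1.86 (log2 ratio 1.42). Elf3 overlapped on both scales. On either scale Zfp750, Klf4 and Ovol1 were lower and Grhl1 was higher in both p53-/- libraries, although the nearest Ovol1 libraries were at 21.3 and 21.2. Klf5, Grhl2, Grhl3 and Ehf overlapped on the TMM scale and were higher in both p53-/- libraries on the epithelial scale. The share of all genes tested that were higher without overlap on the epithelial scale was not computed. Nothing is therefore read from these separations.

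**Figure D3:**
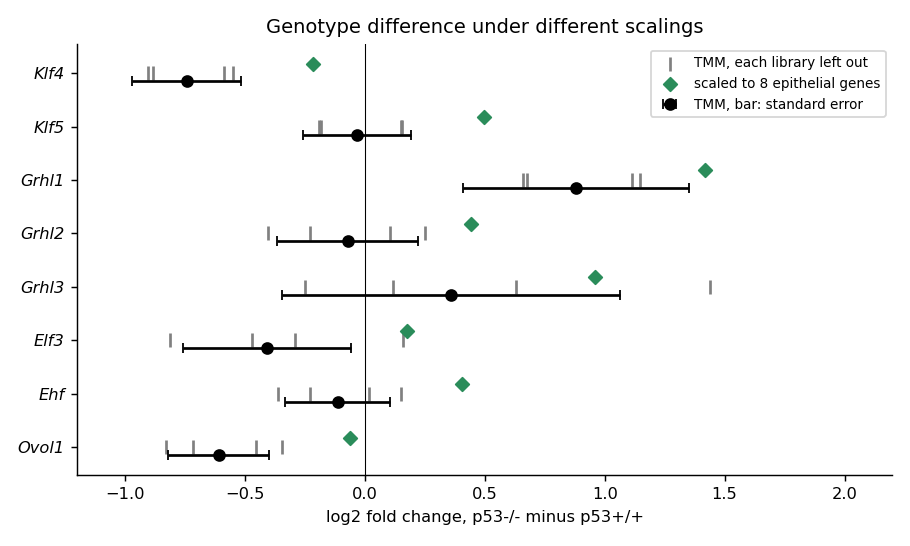
Log2 fold change (p53-/- over p53+/+) of the members other than Zfp750. Black points are TMM-scaled values ± SE, grey ticks are fits with 1 library left out, and green diamonds are values scaled to 8 epithelial genes. The diamonds lie to the right of the points, with Klf5 moving from -0.03 to 0.50 and Ovol1 from -0.61 to -0.06.

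Of the 9 members, 1 was called lower (Zfp750) and 0 were called higher by edgeR's adjusted test, where 0.193% of all genes tested were called lower and 0.298% higher. An unadjusted p under 0.05 was reached by 3 members, all lower (Zfp750, Klf4 and Ovol1), beside 7.92% of all genes tested that were lower and 10% that were higher at that level. DESeq2 called 2 members lower (Zfp750 and Klf4), beside 4.12% of all genes lower and 5.05% higher. By edgeR's likelihood ratio test 1 member was lower (Zfp750), beside 2.87% of all genes lower and 5.18% higher. The libraries of the genotypes did not overlap for 3 members that were lower (Zfp750, Klf4 and Ovol1) and 1 that was higher (Grhl1). Among all genes tested, 24.4% were lower and 26.4% were higher without overlap. The median log2 fold change of the members was -0.11, with 7 negative and 2 positive, beside -0.01 for all genes tested. As the members were chosen with this contrast known, nothing is read from these counts. The call of Zfp750 was lost, with 0 members called, when library 9 or library 10 was left out, with unscaled library size, with upper-quartile scaling and with Rn18s-rs5 left out, and a minimum of 10 counts per sample left Zfp750 untested.

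The genes that work with Zfp750 were next examined from a hand-written list of 6. Its repressor partners were present, with Ctbp1 at 214 and 186 CPM in p53+/+ and 208 and 233 CPM in p53-/- SI (log2 fold change 0.14), Rcor1 at 0.15 and the histone demethylase gene Kdm1a at -0.06. The upstream factor Trp63 was counted 0, 0, 2 and 0 times in libraries 7, 8, 9 and 10, and Trp73 0, 2, 3 and 5 times. Of 4 tested genes of the list, 0 passed edgeR's adjusted test, 0 had an unadjusted p under 0.05 and 0 passed DESeq2 (median log2 fold change 0.04, with -0.07 without library 8 and -0.02 without library 9). The Zfp750 counts of p53+/+ SI were measured in tissue with hardly any Trp63 reads. A part of Trp63 in these counts was not tested.

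Relatives of the members were given by family. Among 12 tested Krüppel-like factors other than Klf4 and Klf5, 0 passed edgeR's adjusted test, 4 had an unadjusted p under 0.05 (1 higher and 3 lower), and DESeq2 called 2 lower. Klf6 had a value of -0.84 on the log2 scale (adjusted p = 0.246 from edgeR) and Klf3 of -0.63 (adjusted p = 0.209 from edgeR), while the list median was 0.14, and -0.17 without library 7. Of the 3 CP2 relatives of the Grainyhead factors, 0 passed edgeR, and DESeq2 and the unadjusted test each gave 1, Tfcp2l1. It was at 238 and 201 CPM in p53+/+ and at 123 and 66.2 CPM in p53-/- SI (log2 fold change -1.22, adjusted p = 0.159 from edgeR).

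Of 21 tested ETS factors other than Elf3 and Ehf, 0 passed edgeR, 6 were higher and 2 lower at an unadjusted p under 0.05, and DESeq2 called 3 higher and 2 lower (median 0.21). Ets2 had a value of -0.79 on the log2 scale (adjusted p = 0.134 from edgeR). Etv4, named after its values were seen, was counted 230 and 141 times against 33 and 23 times (log2 fold change -3.17, adjusted p = 0.0569 from edgeR). In the other direction, Ets1, also named after its values were seen, was counted 151 and 240 against 727 and 1713 times (log2 fold change 2.23, adjusted p = 0.134 from edgeR). The mesenchymal factors that Ovol and Grainyhead proteins are known to repress did not separate the genotypes, with Zeb1 at 0.23 (SE 0.766) and Zeb2 at 0.84 (SE 0.804). Ovol2, the relative of Ovol1, was counted 59 and 30 times in p53+/+ and 214 and 242 times in p53-/- libraries (log2 fold change 1.93, SE 0.445, adjusted p = 0.130 from edgeR). It was the opposite of Ovol1 in direction, and DESeq2 called it higher. In that list of 7 tested genes, 0 passed edgeR's adjusted test and 1 had an unadjusted p under 0.05. Its median of 0.23 was -0.15 without library 7 and 1.62 without library 8, which held most smooth muscle counts.

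The genes downstream of these factors in stratified epithelium had few or no counts in the SI, with exceptions. Of 50 genes of squamous differentiation and the cornified envelope, 49 were in the table, 16 had 0 counts in all 4 libraries and 17 had enough counts to test. Ivl, the gene of involucrin, had 1 count in library 7 and 0 elsewhere. By edgeR's adjusted test 0 of the 17 passed, 4 were lower and 0 higher at an unadjusted p under 0.05, and DESeq2 called 2 lower (median -0.28, or 0.07 without library 10). The most abundant, Sprr2a1, was at 504 and 440 CPM in p53+/+ and 646 and 546 CPM in p53-/- SI (log2 fold change 0.34, adjusted p = 0.504 from edgeR), and it has close copies with which reads may be shared. Sprr1a, named after its values were seen, was counted 949 and 245 against 164 and 179 times (log2 fold change -2.21, adjusted p = 0.170 from edgeR). Its value was -0.97 without library 7 and -2.87 without library 8. More abundant genes of the list had smaller values in both directions. These were Sprr2a2 at 0.16, Evpl at -0.28, Cst6 at -0.39, Sprr2a3 at 0.42 and Pkp1 at 0.59. Casp14, the caspase of epidermal cornification, named after its values were seen, was counted 169 and 79 against 11 and 11 times (log2 fold change -3.90, or -3.29 without library 7, adjusted p = 0.0602 from edgeR).

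Markers of squamous epithelium were checked beside Zfp750 because Zfp750 is best known from stratified epithelium. Summed over 14 markers, they came to 37.5 and 28.4 CPM in p53+/+ and to 16.8 and 10.8 CPM in p53-/- SI. Several basal and suprabasal keratins were near 0. Krt5 had 5, 4, 0 and 0 counts, Krt14 6, 11, 6 and 1, Krt1 4, 1, 6 and 4, and Krt6a and Krt6b 0 in libraries 7 to 10. Krt10, a suprabasal keratin, was not near 0 and not lower, with 37, 29, 65 and 37 counts (log2 fold change 0.17). Krt15 was counted 119 and 101 against 8 and 13 times (log2 fold change -3.79, adjusted p = 0.0569 from edgeR). Krt4 was also lower in both p53-/- libraries, at 39 and 13 against 3 and 0 counts (adjusted p = 0.159 from edgeR). Most of the sum came from Serpinb5, the gene of the serpin maspin, which is also made by other epithelia, at 23.0 and 17.3 CPM in p53+/+ and 12.2 and 7.26 CPM in p53-/- SI. Of the 5 tested markers, 0 passed edgeR, 3 were lower at an unadjusted p under 0.05 and DESeq2 called 1 lower. Summed over 10 adipocyte markers, the level was 158 and 159 CPM in p53+/+ and 45.6 and 36.2 CPM in p53-/- SI. Of 8 tested, 0 passed edgeR, 6 were lower at an unadjusted p under 0.05 and DESeq2 called 5 lower. The 11 T cell markers summed to 9.72 and 17.3 CPM in p53+/+ and to 84.8 and 172 CPM in p53-/- SI, where 0 passed edgeR, 11 were higher at an unadjusted p under 0.05 and DESeq2 called 11 higher. The part of these other cell types in the Zfp750 values was not tested.

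Junction and polarity genes, which Grainyhead-like factors are known to sustain, had mostly negative values. Of 37 tested, 7 were positive and 30 negative, with a median of -0.41, beside -0.54 for the epithelial markers and -0.01 for all genes. By edgeR's adjusted test 0 passed, 8 were lower and 1 higher at an unadjusted p under 0.05, and DESeq2 called 7 lower. The claudin gene Cldn4, named after its values were seen, was counted 5722 and 4722 against 2728 and 2454 times (log2 fold change -1.45, adjusted p = 0.0553 from edgeR). Without library 7 the median was -0.22 for these genes and -0.26 for the epithelial markers.

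Among 30 genes of intestinal differentiation, 1 passed edgeR's adjusted test, and it was lower in p53-/- SI. That gene was Ihh, a secreted hedgehog ligand made by differentiated epithelium rather than a transcription factor. It fell from 247 and 205 CPM in p53+/+ to 60.2 and 44.7 CPM in p53-/- SI (log2 fold change -2.11, SE 0.228, adjusted p = 0.0433 from edgeR). DESeq2 also called it, and edgeR's call was lost without library 9 (adjusted p = 0.0754), without library 10 (0.306), with library size only (0.0568) and with upper-quartile factors (0.0505), the range over all alternatives being 2.98e-17 to 0.306. Cdx2, the master factor of intestinal identity, was at 533 and 338 CPM in p53+/+ and at 231 and 204 CPM in p53-/- SI (adjusted p = 0.167 from edgeR). The median of the list was -0.18, and 0.04 without library 10. At an unadjusted p under 0.05, 6 were lower and 2 higher, and DESeq2 called 5 lower and 2 higher. Creb3l3, named after its values were seen, was counted 8049 and 2521 against 1297 and 1054 times (log2 fold change -2.60, adjusted p = 0.111 from edgeR), and its value was -1.57 without library 7 and -3.19 without library 8. Of 14 goblet cell genes linked to Klf4, 0 passed edgeR, 2 were lower at an unadjusted p under 0.05 and DESeq2 called 1 lower. The goblet cell lectin gene Zg16 had a value of -0.96 on the log2 scale (adjusted p = 0.255 from edgeR), and the median of these genes was -0.15, and 0.06 without library 10. By edgeR's likelihood ratio test, 0 genes were called among the Zfp750 partners, the Krüppel-like factors and the epithelial markers. It called 1 CP2 factor lower, 3 ETS factors higher and 2 lower, 1 of the mesenchymal and Ovol factors higher, 3 squamous and 3 junction genes lower, and 1 intestinal differentiation gene higher and 3 lower. Lower calls by that test also came to 1 goblet cell gene, 2 keratinocyte and 5 adipocyte markers, and 11 T cell and 8 B cell and follicle markers were called higher.

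**Figure D4:**
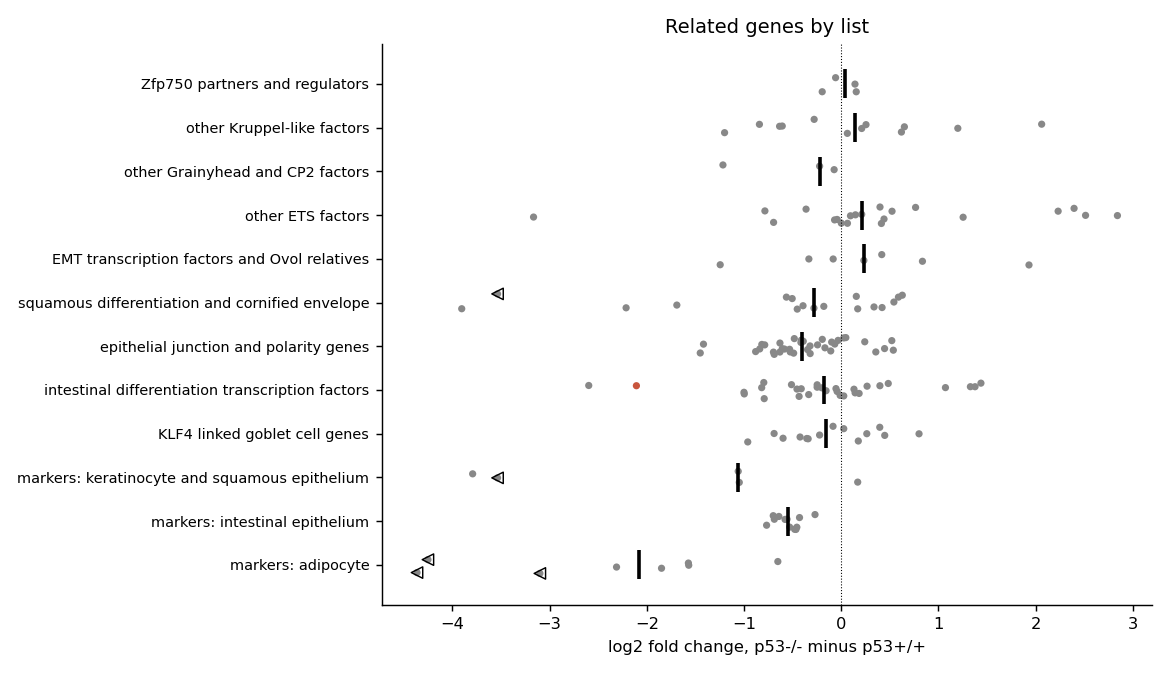
Log2 fold change (p53-/- over p53+/+) of tested genes in each list, with the median as a bar. The red point, Ihh at -2.11, is the gene past the adjusted threshold. Triangles are genes with 3 or fewer counts in both p53-/- libraries, drawn at the value computed with 3 counts in each.

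The genes with a pattern most like that of Zfp750 were ranked by the distance between log2 CPM profiles over the 4 libraries, each centred on its mean. The 5 nearest protein-coding genes were 1700007K13Rik (distance 0.411), Atg9b (0.445), Nlrp1b (0.505), Gdf15 (0.693) and Psapl1 (0.723). Atg9b, an autophagy gene, was counted 370 and 399 times in p53+/+ and 17 and 22 times in p53-/- libraries. Nlrp1b, an inflammasome sensor, was counted 328 and 313 against 8 and 13 times. Gdf15, a secreted stress factor, had 425 and 527 against 25 and 20 counts. Each of these was abundant enough in p53-/- SI to keep a measurable level, unlike 1700007K13Rik with 63 and 35 against 0 and 0 counts and Psapl1 with 35 and 30 against 0 and 1. The level of 1700007K13Rik was at least 22.0-fold lower in p53-/- SI, computed with 3 counts in each p53-/- library. As these genes were selected for their likeness in the same 4 libraries, no test is given for them.

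**Figure D5:**
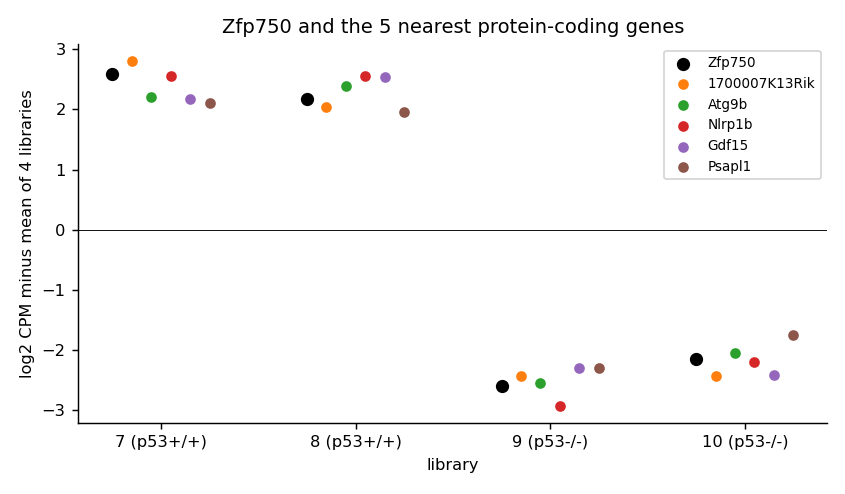
Centred log2 CPM of Zfp750 and the 5 protein-coding genes nearest to it, by library. The genes are above 0 in libraries 7 and 8 and below 0 in libraries 9 and 10, and the distances to Zfp750 range from 0.411 to 0.723.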

How the data were processed

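RNA-seq of SI tissue from 2 p53+/+ and 2 p53-/- mice was analysed from raw counts of reads per gene, deposited by the authors without normalization. The submitters' processing notes name fastp, HISAT2 2.0.5, featureCounts 1.5.0-p3 and DESeq2 1.20.0; the genome build, annotation release and strand setting are not given in the sources used here, so reads of overlapping genes or paralogs could have been split. Library totals were 15005479 to 22173164 counts. The study describes its data points as biological replicates, and replicate libraries differed beyond sampling noise (chi-square per degree of freedom 48.0 for p53+/+ and 69.5 for p53-/-).

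From these counts, libraries were scaled by TMM, low genes were removed by filterByExpr, and 16094 genes were tested two-sided with edgeR 4.0.16 (quasi-likelihood, R 4.3.3), with Benjamini-Hochberg adjustment (threshold 0.05). SE is the absolute log2 fold change divided by the square root of F. CPM were computed on TMM-scaled sizes. Exon lengths, overlaps and biotypes came from GENCODE M21, which holds 91.9% of the gene identifiers. The script was tested on simulated data. The 9 members and the lists were chosen with earlier results of these data known. Named genes are the members, Trp53, listed genes past the threshold and up to 4 others per list by mean CPM, genes overlapping a member or next to Zfp750, and the 5 nearest to Zfp750; exceptions are stated, and Trp63, Trp73, Ivl and the squamous keratins were named for their role, after their values were seen. Alternatives were library size only, RLE, upper-quartile and epithelial scaling, DESeq2 1.42.0, edgeR's likelihood ratio test, genes unfiltered or with a minimum of 10 counts per sample, a prior count of 2, and each library left out; Rn18s-rs5 left out and the longest transcript as length were added after seeing the data.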

Additional observations from a re-analysis of the deposited data

How the results depend on the processing

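The 48 genes called higher and 31 called lower depended on the setting. Counts were 26 and 20 with unscaled library size, 29 and 20 with upper-quartile scaling, 174 and 17 with epithelial scaling, 812 and 663 with DESeq2, 833 and 462 with the likelihood ratio test, 1433 and 761 with no filter, and 24 and 18 with a minimum of 10 counts per sample. With 1 library left out they ranged from 0 to 680 and from 0 to 344 (325 and 319 without library 7, 680 and 344 without library 8, 77 and 9 without library 9, 0 and 0 without library 10, where edgeR gave 1201 genes with an unadjusted p under 0.05). The cause was not tested. Members called were 0 under library size, upper-quartile scaling, the minimum of 10 counts (where Zfp750 is not tested) and removal of Rn18s-rs5, 2 with DESeq2, and 0 to 1 with 1 library left out. Over all alternatives the log2 fold change was -0.90 to -0.22 for Klf4, -0.83 to -0.07 for Ovol1, 0.66 to 1.42 for Grhl1, -0.19 to 0.50 for Klf5, -0.82 to 0.17 for Elf3, -0.36 to 0.40 for Ehf, -0.41 to 0.44 for Grhl2 and -0.25 to 1.44 for Grhl3. Zfp750, computed with 3 counts in each p53-/- library, ranged from -5.27 to -4.51. Epithelial scaling turned the direction of Tbcd (0.29), B3gntl1 (0.46), Fn3k (0.12) and Gm16136 (0.32), none of them called. With 1 library left out, B3gntl1 ranged from -0.32 to 0.19, Fn3k from -1.08 to 1.53, Gm16136 from -0.47 to 0.12 and 1810058N15Rik from -0.037 to 0.90. With no filter the median of all genes moved by 0.15. With the longest transcript as length, Grhl1 (0.699 CPM per kilobase) came above Grhl3 (0.449). No paired analysis was possible because the columns of the table do not carry the replicate numbers of the labels. Lengths as deposited were not run, since the table used here holds none. Counts of 1 and 2 limit the precision of Zfp750 in p53-/- SI.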

Other observations

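Zfp750 belonged to a small set with the same count pattern. In 10 genes, 8 of them protein-coding, both p53-/- libraries had 3 or fewer counts and both p53+/+ libraries had at least 20. Eda2r, a receptor of the tumour necrosis factor receptor family, was counted 325 and 279 times in p53+/+ and 3 and 1 times in p53-/- libraries. Cfd, the complement factor adipsin that is abundant in fat, had 175 and 244 against 0 and 1 counts. Adipoq (40 and 51 against 0 and 3) and Plin1 (33 and 51 against 0 and 0) are also genes of fat cells. The others were 1700057G04Rik, 1700007K13Rik, Psapl1, Mup-ps23 and Gm9949. The opposite pattern was found in 64 genes, 40 of them protein-coding. These thresholds were set with the values of Zfp750 in view, and no test was made of the set.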
